A study of Mus musculus with 9 samples.

Results

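The sites described here are genomic regions where MEIS1 was called in every library and TGIF1 in none. Peaks of 8 lists from mouse MLL-AF9 cells were merged wherever they overlapped by at least 1 bp, which gave 60709 regions. A region was taken when it held a peak from all 4 MEIS1 lists and from none of the 4 TGIF1 lists, so the regions were chosen by the called peaks themselves. In all, 7245 regions met this rule (11.9% of all merged regions). They are called TGIF1-free stable MEIS1 regions, where stable means only that MEIS1 was called before and after induction of TGIF1. A missing TGIF1 peak shows that none was called in these lists, not that TGIF1 was absent.

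The cells were c-kit+ bone marrow cells of C57BL/6 mice, transformed with the fusion oncogene MLL-AF9 and then transduced with pMIG-TGIF1-ER, an inducible form of TGIF1 fused to the estrogen receptor. All groups carried both constructs. Cells received ethanol (EtOH) as the vehicle, or 4-hydroxytamoxifen (4-OHT) for 20 h, which switches TGIF1-ER on. Chromatin was precipitated with a TGIF antibody (H-172) or a Meis antibody and sequenced, with 2 libraries for each antibody and treatment. The 9th sample, an IgG precipitation, was not analysed here. No group without TGIF1-ER received 4-OHT, so effects of the compound and of TGIF1 activity cannot be told apart. Separate cultures are not stated for the 2 libraries that make up each group, and their spread may therefore be technical. They also do not say whether the lines were clonal, and positions of peaks give no check of the cell type.

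MEIS1 and TGIF1 are both homeodomain proteins of the TALE class. MEIS1 binds DNA together with PBX and HOX proteins, and its activity with HOXA9 is a known driver of leukaemias with MLL fusions. TGIF1 acts mainly as a repressor that recruits corepressors to DNA and limits transcription downstream of SMAD proteins, and its preferred short DNA motif resembles that of MEIS proteins. Stable MEIS1 regions without TGIF1 are thus places where one of these related proteins was called and the other was not.

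The lists gave the position, length and summit of each peak, but no height, score or read number, so the depth of each library is unknown. The MEIS1 lists held 26254 (EtOH replicate 1), 43564 (EtOH replicate 2), 21173 (4-OHT replicate 1) and 48829 peaks (4-OHT replicate 2). The TGIF1 lists held 2764 and 592 peaks under EtOH and 12141 and 26932 under 4-OHT. Lists of such unequal length set how often a region can lack a peak. Sequence and gene annotation of mm9, the build of these coordinates, were not used here, so no gene is named and no sequence is printed.

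MEIS1 was called in all 4 lists at 15835 regions, 29.0% of the 54572 regions with at least 1 MEIS1 list. The 7245 regions without TGIF1 made up 45.8% of these stable regions (exact 95% interval 45.0 to 46.5%). Exactly 1 TGIF1 list had a peak at 3439 stable regions (21.7%), 2 lists at 3921 (24.8%), 3 lists at 1022 (6.45%) and all 4 lists at 208 (1.31%). For comparison, the 5123 stable regions with a peak in both TGIF1 4-OHT lists are called TGIF1-bound stable regions. The intervals cover counting error only.

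The longest TGIF1 list drew the boundary of the set. Of the 3439 stable regions with exactly 1 TGIF1 list, which lie just outside the rule, 3369 (98.0%) owed it to TGIF1 4-OHT replicate 2. TGIF1 4-OHT replicate 1 accounted for 67 and TGIF1 EtOH replicate 1 for 3, and none rested on TGIF1 EtOH replicate 2. Without TGIF1 4-OHT replicate 2 the set would have held 10657 regions. On the MEIS1 side, 5131 TGIF1-free regions had a peak in 3 of the 4 MEIS1 lists. The missing list was MEIS1 4-OHT replicate 1, the shortest, at 2988 of them (58.2%) and MEIS1 EtOH replicate 1 at 1887 (36.8%). MEIS1 EtOH replicate 2 was missing at 198 and MEIS1 4-OHT replicate 2 at 58, so the near misses fell mostly to the 2 shorter lists, 1 of each treatment. The TGIF1-free stable regions took up 28.2% and 16.7% of the peaks of MEIS1 EtOH replicates 1 and 2, and 34.5% and 15.0% of those of 4-OHT replicates 1 and 2.

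TGIF1-free stable regions carried shorter MEIS1 peaks than TGIF1-bound stable regions in each of the 4 MEIS1 libraries. Length was summed over the peaks of a region in a library. In MEIS1 EtOH replicate 1 the median was 362 bp without TGIF1 and 454 bp with TGIF1, and in EtOH replicate 2 it was 647 and 838 bp. In 4-OHT replicate 1 the medians were 443 and 506 bp, and in 4-OHT replicate 2 they were 596 and 763 bp. Regions with 1 TGIF1 list lay between these, with medians of 415, 757, 476 and 707 bp in the same order of libraries. The log2 ratio of the medians, TGIF1-free over TGIF1-bound, was -0.31 ± 0.08 (SD, n = 4 libraries), that is 0.806 times the length. It was below 0 in 4 of 4 libraries, with a two-sided exact sign-flip p of 0.125, the smallest that 4 libraries can give. The ratio within single libraries ran from -0.37 (EtOH replicate 2) to -0.19 (4-OHT replicate 1). Wider regions offer more bases for an overlap with any other peak, and the part of this in the difference was not tested. When a TGIF1 peak counted only with its summit within 200 bp of a MEIS1 summit, the set held 7890 regions and the log2 ratio was -0.25.

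**Figure D1:**
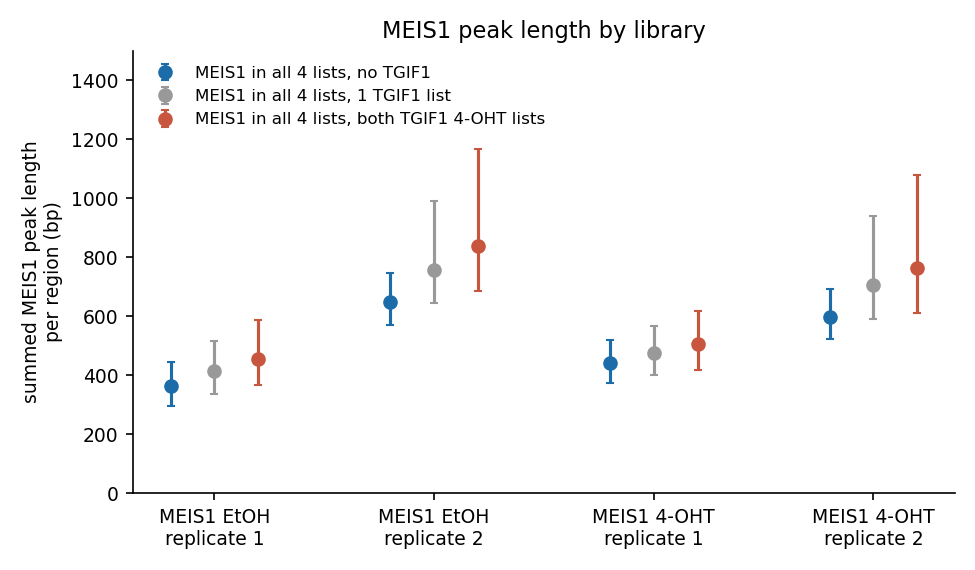
Summed MEIS1 peak length per region (bp, vertical axis) in each of the 4 MEIS1 libraries (horizontal axis). Points are medians and bars run from the lower to the upper quartile; in each library the regions without TGIF1 (blue) have the lowest median, for example 362 bp against 454 bp in EtOH replicate 1, and the quartiles of the 3 classes overlap.

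As whole regions, those without TGIF1 were compact. The merged region had a median length of 669 bp (quartiles 600 and 776 bp, range 244 to 5910 bp), beside 814 bp with 1 TGIF1 list and 940 bp in TGIF1-bound stable regions. Merging with TGIF1 peaks adds to the last 2 values by construction. A single peak in each of the 4 MEIS1 lists made up 7014 of the TGIF1-free regions (96.8%), against 82.2% of the TGIF1-bound ones. In the latter a TGIF1 peak can join separate MEIS1 peaks, so part of this difference can follow from the merging. With single-peak regions alone, a choice made after seeing the data, the log2 ratio of MEIS1 lengths was -0.24.

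The share of stable regions without TGIF1 was lower at each step from short to long MEIS1 peaks. Each peak was given its length percentile within its own list, from 0 for the shortest to 100 for the longest, and the 4 percentiles of a region were averaged. The 15835 stable regions were divided into 10 equal classes of this mean. In the class of the shortest peaks, 1192 of 1584 lacked TGIF1 (75.3%, exact 95% interval 73.1 to 77.4%). The 2 middle classes stood at 50.4% and 43.9%. In the class of the longest peaks, 248 of 1584 lacked it (15.7%, exact 95% interval 13.9 to 17.5%). TGIF1-bound regions took the opposite course, from 11.9% of the shortest class to 57.9% of the longest. Both ends had exceptions to this course. Of the 500 stable regions whose percentile was at least 90 in all 4 lists, 60 (12.0%) had no TGIF1 peak, and of the 27 with a percentile of at most 10 in all 4, 3 were TGIF1-bound.

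**Figure D2:**
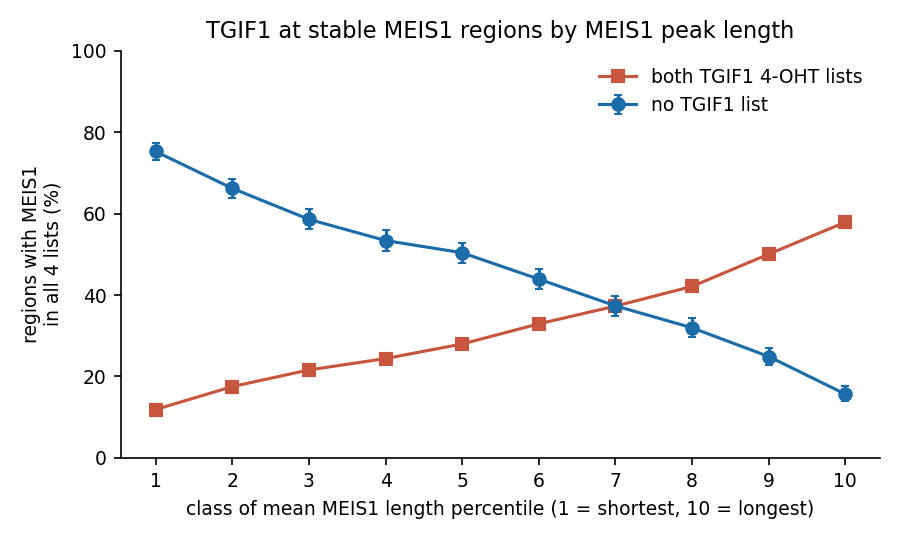
Share of stable MEIS1 regions (%, vertical axis) that had no TGIF1 list (blue, bars are exact 95% intervals) or both TGIF1 4-OHT lists (red), in 10 equal classes of the mean MEIS1 length percentile (horizontal axis, 1 = shortest). The TGIF1-free share goes from 75.3% in the shortest class to 15.7% in the longest, and the TGIF1-bound share from 11.9% to 57.9%.

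Some MEIS1 peaks that ranked among the longest of their lists had no TGIF1 peak on them. The TGIF1-free region with the highest mean percentile was chr8:124345854-124351763 (mm9, as all coordinates here). Its MEIS1 peaks summed to 5722 and 5888 bp under EtOH and to 5087 and 5904 bp under 4-OHT, so the 4 libraries were alike in length, and the nearest TGIF1 peak lay 1466 bp away. Next came chr1:85314486-85316855, with 1753 and 2364 bp under EtOH and 2169 and 2233 bp under 4-OHT. The third, at chr1:85076086-85078429, had 952 and 2330 bp under EtOH and 1844 and 2342 bp under 4-OHT. In these the 2 treatments overlapped. Chromosome 1 gave 5 of the 8 regions with the highest mean percentile, and 4 of these lay between 85 and 88 Mb, where 16 TGIF1-free stable regions were found in all. Neither the IgG sample nor the sequence of this stretch was examined, so its peaks were not checked against background. The others of the 8 were at chr13:99827931-99829816, chr1:181092862-181094727, chr15:91473902-91476186, chr1:87516855-87519428 and chr1:85304569-85309014. Of all 8, the one at 181092862 was the most remote, 53.6 kb from the nearest TGIF1 peak, and the rest were 1.23 to 10.4 kb away.

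Just outside the rule, the stable regions with exactly 1 TGIF1 list and the highest mean percentile were likewise mostly on chromosome 1, with 3 of the 4 named. The first, chr1:90155496-90161169, held a TGIF1 peak of 3642 bp in 4-OHT replicate 1 alone. The second, at chr1:87396213-87398411, held an 876-bp TGIF1 peak in 4-OHT replicate 2 alone, within MEIS1 peaks that summed to 1789 and 2171 bp under EtOH and 1955 and 2159 bp under 4-OHT. Regions at chr15:39608087-39610701 and at chr1:85039200-85041382 followed. Both groups of named regions were picked for the highest mean percentile, so their similar MEIS1 lengths follow from the choice.

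MEIS1 summits fell close together in all libraries at most TGIF1-free stable regions. The summit is the position of the highest signal that the peak caller reported, and that of the longest peak in each list was used. The 4 summits of a region spanned a median of 27 bp (quartiles 16 and 44 bp). In TGIF1-bound stable regions the span was 33 bp (quartiles 18 and 68 bp), and with 1 TGIF1 list it was 32 bp. All 4 summits fell within 50 bp at 5848 TGIF1-free regions (80.7%, exact 95% interval 79.8 to 81.6%) and at 3422 TGIF1-bound ones (66.8%, exact 95% interval 65.5 to 68.1%). Spans over 200 bp occurred at 3.78% and 13.6%. TGIF1 peaks took part in the merging and can join separate MEIS1 peaks into 1 region. Summits in regions with TGIF1 may then come from different MEIS1 peaks, so part of these differences can arise by construction. The size of that part was not computed for the span. Of the top-ranked TGIF1-free regions, chr8:124345854-124351763 had a span of 1157 bp, chr1:85314486-85316855 of 1353 bp and chr1:85076086-85078429 of 8 bp. The summit also sat centrally: in each of the 4 libraries at least 97.7% of TGIF1-free regions had it in the middle 50% of the peak. Central summits were common in TGIF1-bound regions too, at 92.5 to 97.0%.

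**Figure D3:**
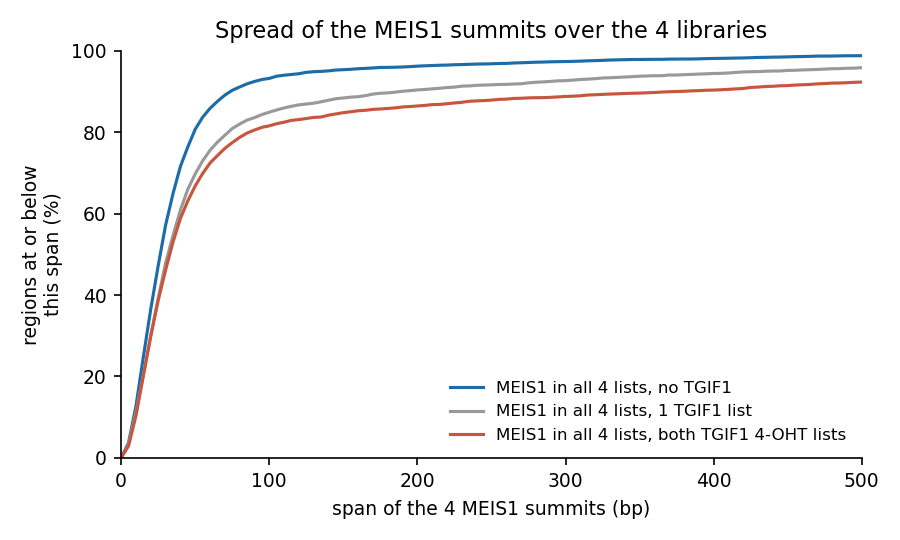
Cumulative share of regions (%, vertical axis) by the span of their 4 MEIS1 summits (bp, horizontal axis, drawn to 500 bp) for stable regions without TGIF1, with 1 TGIF1 list and with both TGIF1 4-OHT lists. At 50 bp the curves stand at 80.7% for TGIF1-free, 69.8% for 1 list and 66.8% for TGIF1-bound regions. TGIF1 peaks took part in the merging, which can widen the span in regions with TGIF1.

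Between pairs of libraries, the median distance of the summits at TGIF1-free regions was 13 bp between the EtOH replicates and 12 bp between the 4-OHT replicates. Across treatments it was 15 bp for the libraries numbered 1, 8 bp for those numbered 2, and 12 and 13 bp for the crossed pairs. Distances across treatments thus lay around those between replicates of 1 treatment, and the median signed shift was 0 bp in all 6 pairs. The TGIF1-bound medians were 15, 15, 18, 9, 15 and 16 bp for the same pairs in that order. The difference, TGIF1-free minus TGIF1-bound, was below 0 in 6 of 6 pairs and averaged -2.50 bp. The pairs share libraries, so no test was made. It was -2.19 bp within 5 classes of MEIS1 length, added after seeing the data. With 1 peak in each MEIS1 list, also added then, it was -1.33 bp, and without TGIF1 4-OHT replicate 2 it was -1.50 bp.

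The design asks whether MEIS1 binding changes when TGIF1 is switched on, and the TGIF1-free stable regions show how MEIS1 peaks behaved where TGIF1 was not called. Their median MEIS1 peak lengths were 362 and 647 bp under EtOH and 443 and 596 bp under 4-OHT. The replicates lay further apart than the treatments. On the log2 scale the median was 8.92 ± 0.59 under EtOH and 9.01 ± 0.30 under 4-OHT (SD, n = 2 each), a difference of 0.09 with a two-sided exact permutation p of 1.0. The smallest p that 2 against 2 libraries can give is 0.333. The sign of this difference was not stable: it became -0.33 when MEIS1 EtOH replicate 1 was left out and -0.13 when 4-OHT replicate 2 was. Leaving out EtOH replicate 2 gave 0.51, and leaving out 4-OHT replicate 1 gave 0.32.

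Set against TGIF1-bound regions of the same library, which removes the peak width common to a library, the log2 length ratio was -0.35 ± 0.03 under EtOH and -0.27 ± 0.12 under 4-OHT (SD, n = 2 each). The difference was 0.08, with a two-sided exact permutation p of 0.667. Leaving out MEIS1 4-OHT replicate 1 gave -0.019, and leaving out 4-OHT replicate 2 gave 0.15. The mean length percentile of TGIF1-free regions was 49.2 and 51.1 under EtOH and 49.2 and 53.5 under 4-OHT, and that of TGIF1-bound regions was 66.8 and 73.1 against 62.2 and 71.8. In both classes the treatments overlapped.

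Region by region, the percentiles of both 4-OHT libraries were below those of both EtOH libraries at 936 of the 7245 TGIF1-free regions (12.9%), where the background over all stable regions was 13.2%. Both were above at 1221 (16.9%), where the background was 13.4%. The share that was lower is thus near the background. The share that was higher lies above it, but leaving out MEIS1 4-OHT replicate 1 gave 37.6% beside 37.3% over all stable regions. Leaving out MEIS1 EtOH replicate 1 gave 34.5% beside 29.5%, and leaving out MEIS1 EtOH replicate 2 gave 35.5% beside 33.2%. Lists of equal length gave 12.1% beside 11.8%. With TGIF1 lists of 592 peaks most stable regions lack TGIF1, so these shares are alike by construction. In TGIF1-bound stable regions the shares were 14.5% lower and 9.97% higher, and with 1 TGIF1 list 12.0% and 11.4%. Weighted to the length classes of the TGIF1-free regions, an alternative added after seeing the data, the TGIF1-bound shares were 17.6% lower and 9.90% higher. The order of the 2 directions depended on libraries. Leaving out MEIS1 4-OHT replicate 2, 34.7% of TGIF1-free regions were lower and 33.2% higher, beside 38.6% and 28.2% of all stable regions. Leaving out MEIS1 4-OHT replicate 1, 25.4% of TGIF1-free regions were lower, beside 24.7% of all stable regions, and the TGIF1-bound shares were 26.2% lower and 35.5% higher. The median change of the mean percentile, 4-OHT minus EtOH, was 0.983 points in TGIF1-free and -1.70 points in TGIF1-bound regions. Within replicate number 1 these were -0.570 and -2.76 points and within number 2 they were 2.19 and 0.184 points. Over libraries, the mean percentile of TGIF1-free minus TGIF1-bound regions was -19.8 ± 3.11 points under EtOH and -15.7 ± 3.69 under 4-OHT (SD, n = 2 each). The difference of 4.14 points had a two-sided exact permutation p of 0.667.

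Single TGIF1-free regions did show large differences between treatments in length. At chr7:117300798-117302134 the MEIS1 peaks summed to 431 and 1337 bp under EtOH and to 323 and 855 bp under 4-OHT. The mean percentile of the longest peak there differed by -67.8 points, 4-OHT minus EtOH, and the 855 bp were split over 2 peaks. The next lowest values were -63.4 points at chr12:112002585-112003701 and -63.3 points at chr9:95702261-95703056. At the chr12 region the 864 bp of MEIS1 4-OHT replicate 2 were likewise split over 2 peaks. The highest value, 61.5 points, was at chr10:67361594-67362199, with 247 and 422 bp under EtOH and 536 and 606 bp under 4-OHT. Values of 58.4 points at chr3:84531672-84532285 and 56.2 points at chr7:53499428-53500034 came next. These 6 were chosen for their difference, so the values are a description. Across all TGIF1-free regions the change ran from -27.7 points at the 5th to 30.1 points at the 95th percentile.

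TGIF1 was usually called within 100 kb, and more often still near TGIF1-bound stable regions. The rule sets only that no TGIF1 peak touches a region, and the distance beyond that is given as a description, counted from edge to edge. The nearest TGIF1 peak of any list lay a median of 16173 bp away (quartiles 5007 and 47043 bp). It was within 200 bp at 118 regions (1.63%), within 1 kb at 564 (7.78%), within 10 kb at 2778 (38.3%) and within 100 kb at 6321 (87.2%). Only 57 regions had none within 1 Mb. By single list the median distance was 222166 bp for TGIF1 EtOH replicate 1, 1361306 bp for TGIF1 EtOH replicate 2, 40563 bp for TGIF1 4-OHT replicate 1 and 16762 bp for TGIF1 4-OHT replicate 2. This order is that of the lengths of the lists. Counted between merged regions, 38.5% of TGIF1-free regions had a region with TGIF1 within 10 kb and 87.3% within 100 kb. TGIF1-bound stable regions had another region with TGIF1 that near at 55.7% and 94.9%. Shares for random positions were not computed.

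**Figure D4:**
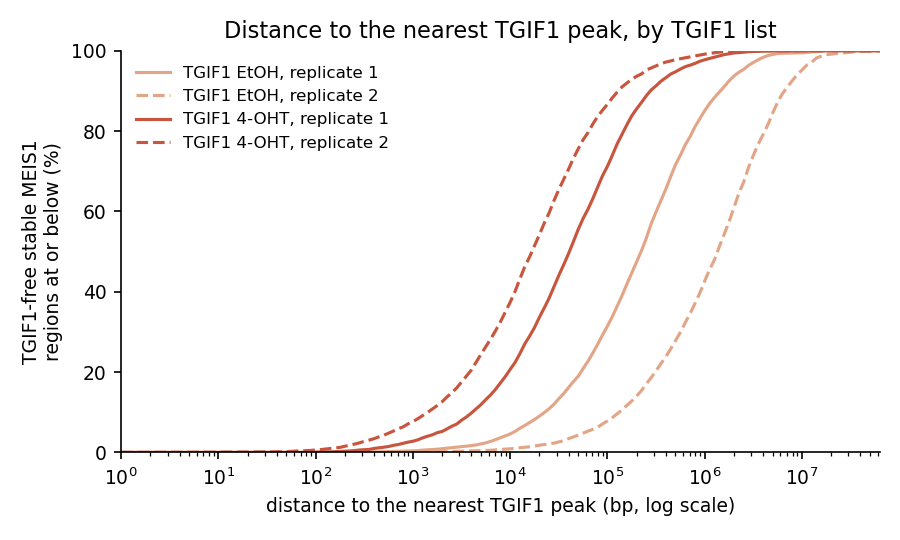
Cumulative share of the 7245 TGIF1-free stable MEIS1 regions (%, vertical axis) by the distance to the nearest TGIF1 peak (bp, logarithmic horizontal axis), with 1 curve per TGIF1 list. Within 10 kb the curves reach 4.60% and 0.952% for EtOH replicates 1 and 2, and 20.7% and 37.4% for 4-OHT replicates 1 and 2.

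The regions closest to the edge of the rule missed TGIF1 by a few bases. On chromosome 1 the region from 93976643 to 93977312 lay 3 bp from a TGIF1 peak, and on chromosome 6 the region from 8720918 to 8722096 lay 5 bp from one. Distances of 8 and 10 bp followed at chr16:95005157-95005749 and chr6:127478496-127479348, and all 4 neighbours were peaks of TGIF1 4-OHT replicate 2. Requiring 1 kb free of TGIF1 left 6681 regions, with a log2 length ratio to TGIF1-bound regions of -0.31. At the far end was chrX:110117134-110117598, 3908 kb from the nearest TGIF1 peak. A pair of neighbours on chromosome 5, from 48763067 to 48763883 and from 48722470 to 48723167, were 2495 and 2454 kb away, and chr16:67313548-67314089 was 2326 kb away.

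MEIS1 peak length differed little with this distance up to 100 kb. The median of the mean percentile was 52.8 within 1 kb of TGIF1, 53.6 from 1 to 10 kb, 50.1 from 10 to 100 kb and 44.0 beyond 100 kb, in 564, 2214, 3543 and 924 regions. All 4 summits fell within 50 bp at 78.5% of the nearest and 83.4% of the most distant. The region with TGIF1 that was nearest to a TGIF1-free stable region also carried MEIS1 in all 4 lists in 2831 of 7245 cases (39.1%) and in no MEIS1 list in 1362 (18.8%). Among all 26884 regions with TGIF1 these shares were 32.0% and 22.8%.

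TGIF1-free stable regions lay in somewhat sparser surroundings than TGIF1-bound ones. The next region with any MEIS1 peak was a median of 5346 bp away, beside 3703 bp for TGIF1-bound stable regions. The next stable MEIS1 region was 21760 bp away, beside 16659 bp, and the next TGIF1-bound stable region 89818 bp, beside 54202 bp. The next TGIF1-free stable region was about as far from both classes, at 52419 bp beside 53585 bp. Within 50 kb on either side there was no other MEIS1 region at 526 of them (7.26%) and at 2.73% of TGIF1-bound stable regions. These are descriptions, since the rule used TGIF1 peaks and neighbouring regions are not independent.

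Along the chromosomes, TGIF1-free stable regions formed runs uninterrupted by a stable region with TGIF1. There were 3715 such runs, of which 1974 held a single region, and 238 runs of 5 or more held 1442 regions. A share of 45.8% of the stable regions gives runs by itself, and the number in a random order was not computed. By number of regions the longest run was on chromosome 2, where 27 TGIF1-free stable regions followed each other from 174967270 to 177249924, a stretch of 2283 kb. No TGIF1 peak of any list lay in it. Only 5 further regions there held MEIS1, so 27 of its 32 MEIS1 regions were called in all 4 lists. The gaps between neighbours had a median of 62.8 kb and ran from 33.5 to 397 kb. Its MEIS1 peaks were of ordinary size, with medians of 353 and 576 bp under EtOH and 460 and 562 bp under 4-OHT. The longest were 518 and 662 bp under EtOH and 560 and 794 bp under 4-OHT. The mean percentiles of its regions ran from 17.96 to 63.7.

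The other long runs looked different. A run of 15 at chr13:24867870-29860498 spanned 4993 kb, and within it lay 10 regions with TGIF1 that were not stable MEIS1 regions. On chromosome X, 13 were spread over 9936 kb with 7 regions with TGIF1 among them. The most compact, at chr6:125328063-125545361, held 10 in 217 kb, at a median gap of 13.2 kb. It also held 20 MEIS1 regions called in 1 to 3 lists, and 3 regions with TGIF1.

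The share of stable MEIS1 regions without TGIF1 was highest on chromosome X. Since TGIF1 peaks chose the regions, these shares are a description. On X it was 104 of 151 regions (68.9%, exact 95% interval 60.8 to 76.2%), against 7141 of 15684 on the 19 autosomes (45.5%). The autosomes ranged from 40.0% on chromosome 15 to 49.2% on chromosome 1. Chromosome X regions also had short MEIS1 peaks, with a median mean percentile of 38.0 for TGIF1-free and 38.1 for the 19 TGIF1-bound regions there. On chromosome 15, at the other end, these medians were 61.4 and 84.3. Within 5 equal classes of length the picture was uneven. In the shortest class, 53 of 77 regions on X (68.8%) and 70.8% of those on autosomes lacked TGIF1. In the middle class it was 18 of 24 on X (exact 95% interval 53.3 to 90.2%) and 46.9% on autosomes. In the longest class it was 2 of 3 and 20.2%. Chromosome X held 0.741% and 1.11% of the peaks of TGIF1 4-OHT replicates 1 and 2. In the MEIS1 lists its share was 1.09% and 1.16% under EtOH, and 0.978% and 1.19% under 4-OHT. Without chromosome X, an alternative added after seeing the data, the log2 length ratio of TGIF1-free to TGIF1-bound regions was -0.31.

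**Figure D5:**
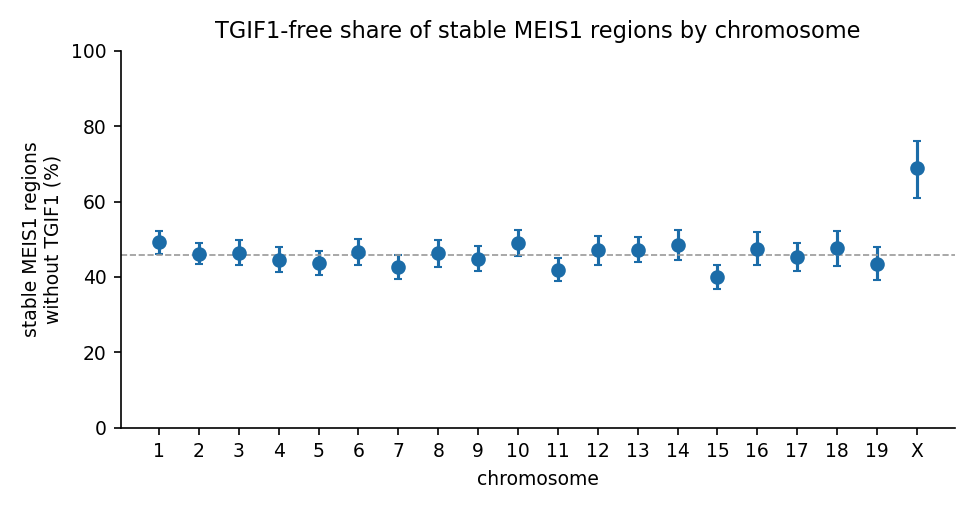
Share of stable MEIS1 regions without TGIF1 (%, vertical axis) on each chromosome (horizontal axis), with exact 95% intervals as bars and the share over all chromosomes (45.8%) as a dashed line. Chromosome X stands at 68.9% and the autosomes between 40.0% and 49.2%.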

How the data were processed

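Binding of TGIF1 and MEIS1 was measured by ChIP-seq in 8 libraries, 2 per antibody and treatment. The authors deposited a separate list of peak positions for each library. Build mm9 and Bowtie 0.12.7 are named per the submitters' processing notes, and MACS 1.4.2 per the file headers of MEIS1 4-OHT replicate 2. For the remaining 7 lists no caller is named, and threshold and control are not stated for any. Groups and replicate numbers came from sample titles. Peaks overlapping by at least 1 bp were merged, and summits were taken as offsets from the peak start. Peak number, length and overlap depend on depth, which is unknown.

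Library values were compared with two-sided exact sign-flip or permutation tests, threshold 0.05, and intervals are exact (Clopper-Pearson, 95%). Regions were named by rule: the 8 with the highest mean length percentile over the 4 MEIS1 lists, the 4 nearest to and 4 farthest from TGIF1, the 3 largest falls and 3 largest rises, and the 4 with 1 TGIF1 list and the highest mean percentile, leaving out chromosome 18. The rule for the set and these choices were made with earlier results of these data known. Alternatives were a reciprocal overlap of 50%, TGIF1 summits within 200 bp, the longer 50% of each list, lists of equal length (21173 MEIS1 and 592 TGIF1 peaks), a 1-kb margin, TGIF1 4-OHT lists only, each library left out, the longest peak or the sum as length, and differences within replicate numbers. Planned motif and gene counts were not made, because sequence and annotation of mm9 were not used here. Merging and distances were checked against bedtools 2.31.1, with identical results for 60709 of 60709 regions and 7245 of 7245 distances, and the calls were tested on simulated data. Python 3.11.15, numpy 2.4.6, pandas 2.3.3, scipy 1.17.1 and matplotlib 3.10.9 were used.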

Additional observations from a re-analysis of the deposited data

How the results depend on the processing

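The log2 length ratio of TGIF1-free to TGIF1-bound stable regions stayed below 0 in all 17 alternatives, from -1.01 with lists of equal length to -0.24. It lay between -0.36 and -0.25 without single libraries. The tests over 3 or 4 libraries cannot pass 0.05. With lists of equal length each TGIF1 list held its 592 longest peaks, so at most 592 regions could be TGIF1-bound. The value of -1.01 thus rests on a small class chosen for long TGIF1 peaks. The number of TGIF1-free regions was 2665 with the longer 50% of each list and 7245 to 10657 without single libraries. The 4-OHT minus EtOH difference in their log2 length ran from -0.33 to 0.51 without single libraries, and its sign reversed in 2 of 17 alternatives. That relative to TGIF1-bound regions ran from -0.019 to 0.15, and its sign reversed in 1 of 16, at -0.019. Its two-sided exact permutation p was 0.333 with a reciprocal overlap of 50% and with TGIF1 summits within 200 bp. This is the smallest that 2 against 2 libraries can give, so it cannot pass 0.05. Neither sign held in all alternatives. Regions whose percentiles did not overlap between treatments numbered 293 lower (10.99%, beside 11.3% of all stable regions) and 364 higher (13.7%, beside 12.5%) with the longer 50% of each list. They numbered 936 to 2598 lower and 1221 to 3848 higher without single libraries, where 1 against 2 libraries overlap less often by construction. Without single MEIS1 libraries 25.4 to 34.7% were lower, beside 24.7 to 38.6% of all stable regions, and 33.2 to 37.6% higher, beside 28.2 to 37.3%. The mean difference in summit distance was -3.83 bp with the longer 50% of each list and -1.33 bp with 1 peak in each MEIS1 list. It was -2.67 to -1.50 bp without single libraries. Lists of equal length gave -21.0 bp (SD 15.8 bp over pairs of libraries), which rests on the same small TGIF1-bound class. Except where a reason is given, the cause was not tested.

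Replicate numbers are shared between the treatments, but nothing in the labels pairs the libraries. The difference in length percentile between replicates 1 and 2 correlated between treatments across the 15835 stable regions (r = 0.296), which share libraries and are not replicates. With a replicate block, that is within both replicate numbers, 1640 TGIF1-free regions were lower under 4-OHT (22.6%, beside 24.7% of all stable regions). Higher were 2117 (29.2%, beside 26.1%), and the exact p of the difference in log2 length stayed at 1.0. For the difference relative to TGIF1-bound regions the two-sided exact sign-flip p was 0.5, the smallest that this block can give.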
